A study of Mus musculus with 18 samples.

Results

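Mitochondria make few of their own proteins, and nearly all the rest are translated in the cytosol and brought in through the translocases described here. The mitochondrial protein import genes were the genes whose symbols start with Timm or Tomm, together with Samm50, Mtx1, Mtx2, Grpel1, Grpel2, Pam16, Pmpca, Pmpcb, Dnajc15, Dnajc19, Hspa9 and Hspd1. This gave 39 of the 47069 genes in the deposited tables, and 36 of the 39 had enough counts to be compared. The rule used symbols alone and no measured value, but it was set with earlier results of these data known.

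The material was single oocytes of C57BL/6 wild-type mice, 3 oocytes in each of 6 groups. Oocytes matured in vitro to metaphase II (MII) together with MSC came from mice of 12 months (MSC-IVM-MII 12m) and of 6 weeks (MSC-IVM-MII 6wk), and the labels do not spell out MSC. Oocytes matured in vitro to MII without MSC formed IVM-MII 12m and IVM-MII 6wk. Immature oocytes at the germinal vesicle stage (GV), in which meiosis is arrested in prophase, formed GV 12m and GV 6wk. The labels do not say which oocytes share a mouse or a dish, so a group of 3 oocytes is 1 sample, no test was possible, and every difference below is a description of these oocytes without a replicate check.

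Proteins bound for mitochondria cross the outer membrane through the TOM complex, a receptor and pore assembly. From there the small TIM chaperones of the intermembrane space carry barrel proteins to the SAM complex of the outer membrane and carrier proteins to the TIM22 complex of the inner membrane, while proteins with a cleavable presequence go through the TIM23 complex, pulled in by an Hsp70 motor on the matrix side, and are then cut and folded. The full-grown oocyte is rich in mitochondria. It makes almost no new RNA while it matures, so its transcripts are stored, translated, shortened at the poly(A) tail or destroyed. SMART-seq2, the method used here, copies polyadenylated RNA, and fewer copies of a transcript cannot be told apart from copies with a shorter tail.

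Levels are counts scaled to library size (CPM), and a difference is the mean of log2(CPM + 1) in the first group minus that in the second, so 1 stands for 2-fold. CPM are relative to the other RNA in a library and do not give copies per oocyte. Libraries held 1914072 to 9193559 counts. Between 8612 and 13117 genes were detected per MII oocyte and between 13046 and 16036 per GV oocyte, and mitochondrially encoded RNA took 3.03 to 14.93% of the counts in MII oocytes and 0.92 to 3.7% in GV oocytes. All 12 oocyte markers examined, such as Zp3 and Gdf9, had counts in every group. Summed cumulus and granulosa cell markers were at 0 to 80.5 CPM in MII oocytes and at 73.5 to 254 CPM in GV oocytes other than GV 12m oocyte 3, which had 1894 CPM, with 15 of the 16 listed genes detected in its group and Ptx3 at 0. Of 12 mesenchymal markers, 3 (Dcn, Col3a1 and Vim) had counts in MSC-IVM-MII 12m and 1 in MSC-IVM-MII 6wk, against 1 in each IVM-MII group, 8 in GV 12m and 2 in GV 6wk. Their sum was at most 7.32 CPM in a co-cultured oocyte (MSC-IVM-MII 12m oocyte 3) and at most 14.2 CPM in any oocyte. Thy1, Eng and Nt5e, which define such cells, were at 0 in all 6 groups, and the part of these cells in the results was not tested. Sample titles carry unexplained prefixes (O01, O04 and O05 at 12m, Y01 and Y03 at 6wk), so age cannot be told apart from prefix. The 2 MII oocytes with the prefix Y01, IVM-MII 6wk oocyte 1 and MSC-IVM-MII 6wk oocyte 1, stood apart from the other MII oocytes in several values below. Mitochondrially encoded RNA took 3.22 and 3.03% of their counts, against 6.04 to 14.93% in the other MII oocytes. Their summed oocyte markers were at 46417 and 40117 CPM, against 13192 to 26942 CPM in the other MII oocytes.

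Relative levels of most import genes were far lower in MII oocytes than in GV oocytes, with few exceptions. Summed over the members other than Timm23 and Timm8b, levels were 590, 689 and 780 CPM in MSC-IVM-MII 12m, 780, 910 and 1014 CPM in MSC-IVM-MII 6wk, 807, 786 and 737 CPM in IVM-MII 12m, and 657, 1410 and 860 CPM in IVM-MII 6wk oocytes. In GV 12m oocytes the same sum was 6565, 4047 and 2393 CPM, and in GV 6wk oocytes 3768, 2509 and 4856 CPM, so no MII oocyte reached any GV oocyte. The 2 genes left out had the highest mean levels in each MII group, so leaving them out widens this gap by construction. Over all members the sums overlapped, at 1425 to 4257 CPM in MII oocytes and 2835 to 7671 CPM in GV oocytes. The median difference over the 36 members was −3.1 in MSC-IVM-MII 12m minus GV 12m, −2.35 in MSC-IVM-MII 6wk minus GV 6wk, −2.75 in IVM-MII 12m minus GV 12m and −2.53 in IVM-MII 6wk minus GV 6wk. Over all 12037 genes that passed the same filter the medians were −0.6, −0.29, −0.52 and −0.52 in that order. With the members that had no count in the MII group set to their bounds, the 4 medians were −3.29, −2.35, −2.78 and −2.73. Both comparisons at 1 age share their GV oocytes and are not independent of each other.

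In MSC-IVM-MII 12m oocytes, 29 of the 36 members were at least 2-fold lower than in GV 12m oocytes and 1 was at least 2-fold higher, against 41.7% and 16.7% of all genes. In MSC-IVM-MII 6wk oocytes 26 were lower than in GV 6wk oocytes and 2 higher, against 35.2% and 21.4%. The counts were 27 and 2 in IVM-MII 12m oocytes, against 39.0% and 16.1%, and 26 and 2 in IVM-MII 6wk oocytes, against 39.3% and 16.7%. Another count, without a limit on size, took members for which every MII oocyte lay below every GV oocyte of its age. It gave 25 in MSC-IVM-MII 12m (28.5% of all genes), 26 in MSC-IVM-MII 6wk (28.7%), 24 in IVM-MII 12m (26.2%) and 22 in IVM-MII 6wk (29.2%). The reverse, every MII oocyte above every GV oocyte, held for 1 (10.9%), 1 (14.2%), 3 (11.3%) and 2 (9.59%). The shares of members that were lower thus lay well above those of all genes in each comparison. Among members with at least 20 CPM in the higher group, 24 of 31, 21 of 29, 23 of 31 and 21 of 29 were at least 2-fold lower in the same order, against 41.4%, 39.7%, 39.1% and 42.5% of all genes at that level, and 1, 2, 2 and 2 were higher, against 25.8%, 29.1%, 24.6% and 24.0%. This cut admits a gene through its higher group, and the filter can do the same. Timm22, with 20.8 CPM in GV 12m and 0.0404 CPM in IVM-MII 12m, entered at 12m through GV alone. The same rules applied to all genes. The medians were close to these without the Y01 oocytes (−2.22 with and −2.24 without co-culture at 6wk), −3.38 and −2.68 without GV 12m oocyte 3 (with and without co-culture at 12m), and −3.04, −2.55, −2.54 and −2.91 within title prefixes, in the order above.

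**Figure D1:**
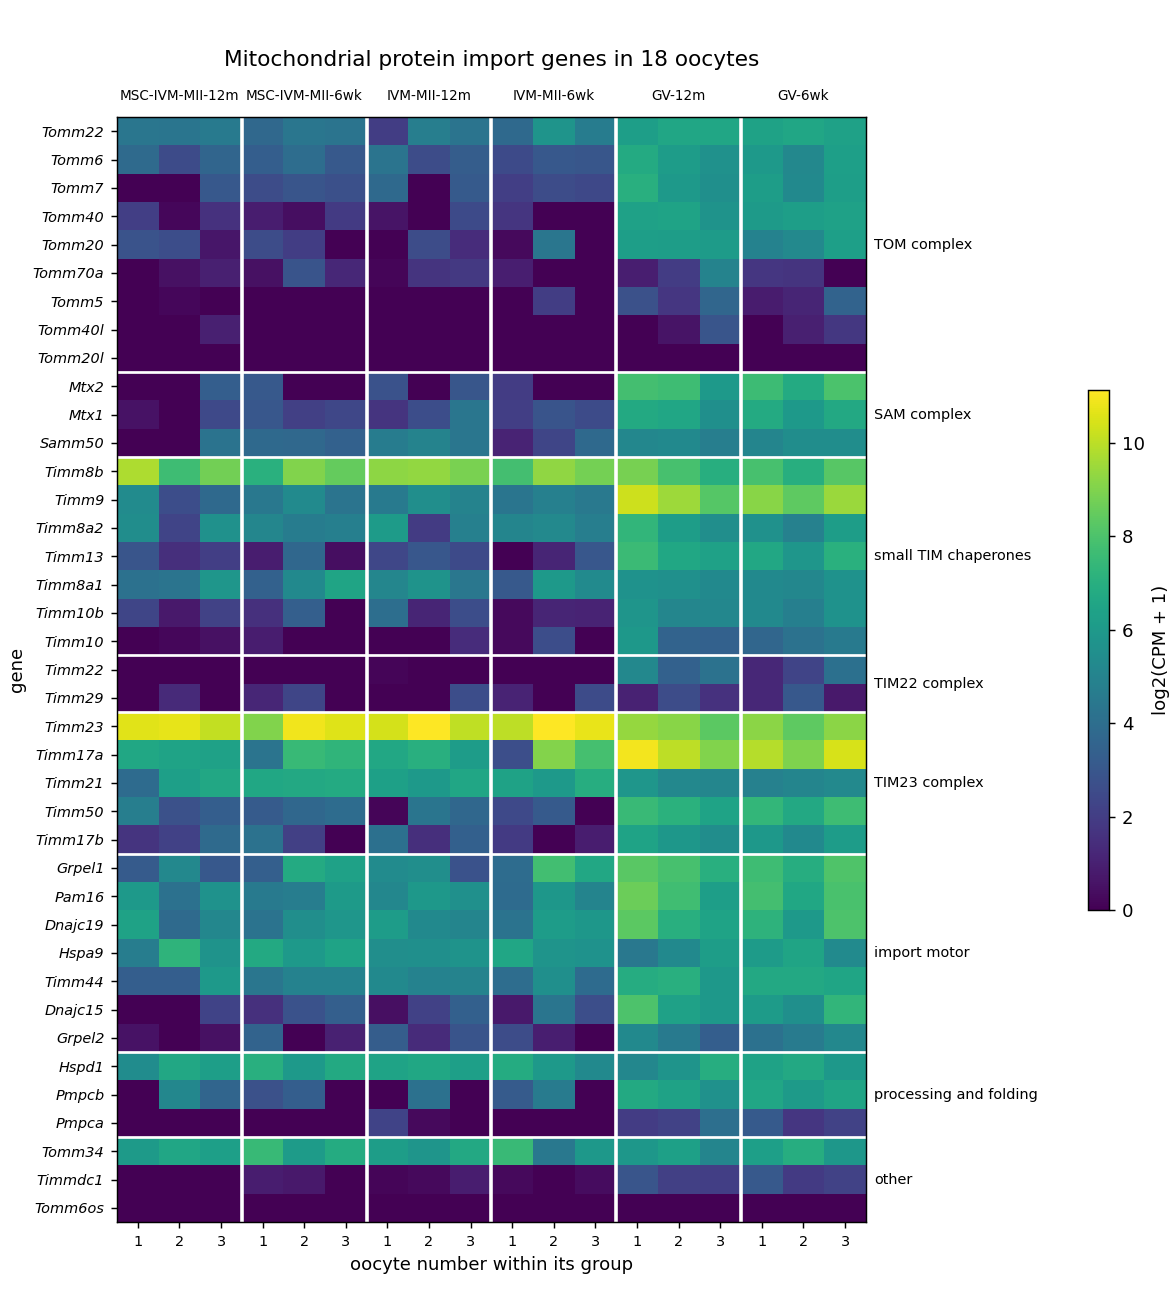
Level of each of the 39 members (down the page, by role) in each of the 18 oocytes (across, MII groups left of GV groups), as log2(CPM + 1). Most members are bright in the GV columns and dark in the MII columns, while Timm23, Timm8b, Timm21, Hspa9, Hspd1 and Tomm34 are not darker in most MII columns.

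Timm23 and Timm8b stood out among the members for the highest mean levels in each MII group. Timm23 encodes the channel subunit of the TIM23 complex and lies on chromosome 14 (GRCm38, 32180162 to 32201898, minus strand). It had 1569.7, 1698 and 1098 CPM in MSC-IVM-MII 12m, 513, 1906 and 1554 CPM in MSC-IVM-MII 6wk, 1372, 2206 and 1063 CPM in IVM-MII 12m, and 1021, 2232 and 1742 CPM in IVM-MII 6wk oocytes. GV 12m oocytes had 655, 574 and 319 CPM and GV 6wk oocytes 585, 333 and 576 CPM. All MII oocytes but MSC-IVM-MII 6wk oocyte 1 lay above all GV oocytes. Mean CPM were 2.82-fold and 2.66-fold higher in MSC-IVM-MII 12m and 6wk than in GV of the same age, and 3-fold and 3.34-fold higher in IVM-MII 12m and 6wk, with differences of 1.53, 1.25, 1.58 and 1.71. The value of 1.25 was 0.98 without GV 6wk oocyte 2 and 0.89 without MSC-IVM-MII 6wk oocyte 2.

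Timm8b (chromosome 9, 50603910 to 50605320, plus strand) encodes a small TIM chaperone of the intermembrane space. It was at 862, 201 and 429 CPM in MSC-IVM-MII 12m, 132, 511 and 365 CPM in MSC-IVM-MII 6wk, 598, 631 and 471 CPM in IVM-MII 12m and 219, 615 and 449 CPM in IVM-MII 6wk oocytes. GV 12m oocytes had 452, 234 and 124 CPM and GV 6wk oocytes 233, 124 and 303.65 CPM. Here the groups overlapped except for IVM-MII 12m, and the differences from GV were 0.83, 0.5, 1.25 and 0.93 in the same order, with mean CPM 1.84, 1.53, 2.1 and 1.94 times as high. They crossed the 2-fold limit with single oocytes left out: 1.25 became 0.79 without GV 12m oocyte 3, and the others reached 1.36 without MSC-IVM-MII 12m oocyte 2, 1.06 without MSC-IVM-MII 6wk oocyte 1 and 1.34 without IVM-MII 6wk oocyte 1. Timm8b shares 81 exon bases (15.6% of its own) with Nkapd1 on the opposite strand. Counting is not stated to use strand, and Nkapd1 itself averaged 32.2 to 38.2 CPM in the MII groups, against 15.3 CPM in GV 12m and 11.7 CPM in GV 6wk.

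Timm21, which encodes a TIM23 subunit that contacts the TOM complex, was the only other member at least 2-fold higher in any MII group (chromosome 18, 84946191 to 84951524, minus strand). It had 13.8, 77.1 and 100.0 CPM in MSC-IVM-MII 12m, 98.5, 104 and 109 CPM in MSC-IVM-MII 6wk, 80.2, 64.7 and 94.3 CPM in IVM-MII 12m and 83.4, 62.1 and 121 CPM in IVM-MII 6wk oocytes, against 57.2, 35.3 and 33.0 CPM in GV 12m and 28.8, 32.4 and 37.2 CPM in GV 6wk oocytes. Every MII oocyte but MSC-IVM-MII 12m oocyte 1 lay above every GV oocyte. Its differences were 0.23, 1.64, 0.94 and 1.36, and the first was 1.09 without that oocyte, while 0.94 became 1.18 without GV 12m oocyte 1 and 1.08 without IVM-MII 12m oocyte 2.

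**Figure D2:**
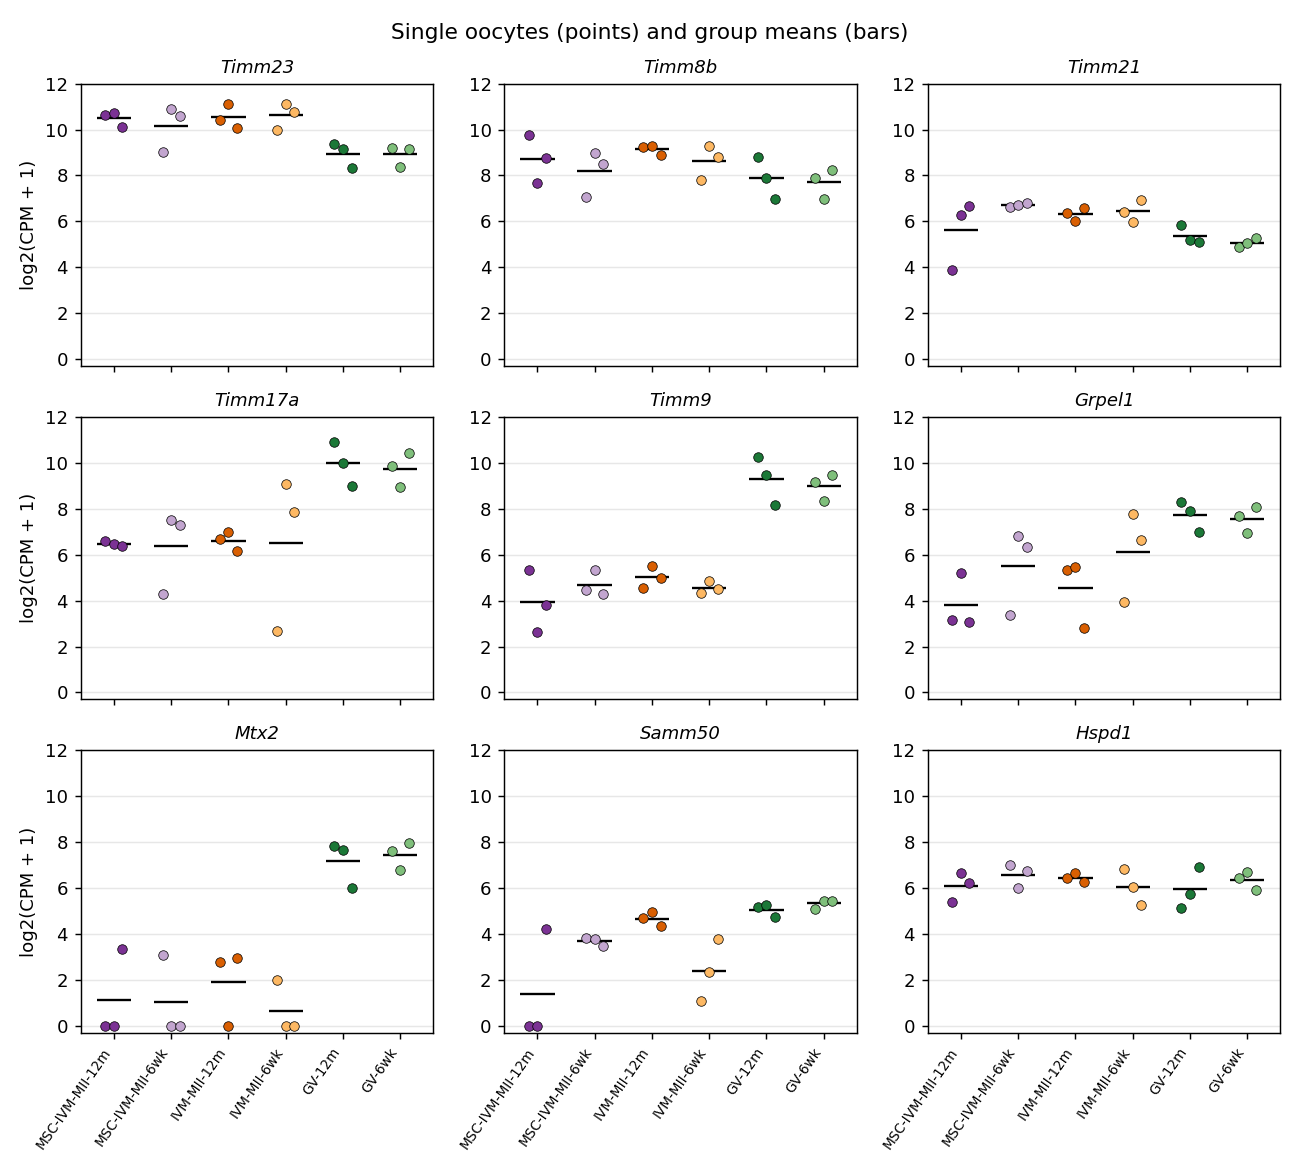
Level of 9 members in single oocytes, as log2(CPM + 1), with points for oocytes and bars for group means, MII groups left of GV groups. Timm23, Timm8b and Timm21 are as high or higher in MII, Timm17a, Timm9, Grpel1 and Mtx2 are lower, Samm50 differs among the MII groups, and Hspd1 overlaps throughout.

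The rest of the TIM23 complex went the other way. Timm17a, which encodes a channel partner of Timm23, had 96.8, 86.9 and 82.4 CPM in MSC-IVM-MII 12m, 18.6, 181 and 154 CPM in MSC-IVM-MII 6wk, 100.66, 127 and 70.1 CPM in IVM-MII 12m and 5.41, 533 and 228 CPM in IVM-MII 6wk oocytes. GV 12m oocytes had 1929.8, 1033 and 511 CPM and GV 6wk oocytes 938, 495 and 1379 CPM. IVM-MII 6wk was the 1 group to overlap GV, and its difference of −3.23 was −1.3 without oocyte 1, which was the lowest of all 18 oocytes. In the other MII groups, MSC-IVM-MII 12m and 6wk and IVM-MII 12m, Timm17a was 13.1-fold, 7.96-fold and 11.7-fold lower. The paralog Timm17b was lower in every MII oocyte than in every GV oocyte of its age, with differences of −3.37, −3.69, −2.94 and −4.86 in MSC-IVM-MII 12m and 6wk and IVM-MII 12m and 6wk. So was Timm50, the receptor subunit of the complex, with 26.3, 5.83 and 8.91 CPM in MSC-IVM-MII 12m, 8.24, 12 and 14.2 CPM in MSC-IVM-MII 6wk, 0.121, 19.2 and 12.3 CPM in IVM-MII 12m and 4.51, 7.76 and 0 CPM in IVM-MII 6wk, against 186, 138 and 85.9 CPM in GV 12m and 165, 105.08 and 199.7 CPM in GV 6wk.

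The small TIM chaperones likewise divided. Timm9 (chromosome 12, 71123173 to 71136684, minus strand), the second most abundant member per length in GV oocytes, had 39.7, 5.14 and 12.9 CPM in MSC-IVM-MII 12m, 21.1, 39.1 and 18.6 CPM in MSC-IVM-MII 6wk, 22.4, 44.7 and 30.8 CPM in IVM-MII 12m and 18.9, 27.6 and 21.4 CPM in IVM-MII 6wk oocytes. GV 12m oocytes had 1231, 713 and 290.3 CPM and GV 6wk oocytes 574, 326 and 708 CPM, so mean CPM were 38.7-fold and 20.4-fold lower in MSC-IVM-MII 12m and 6wk and 22.8-fold and 23.7-fold lower in IVM-MII 12m and 6wk. Timm10, Timm10b and Timm13, whose products work with Timm9 or its relatives, were lower in every MII oocyte than in every GV oocyte of their age, with differences of −5.13 to −2.76. Timm8a1, a relative of Timm8b, had differences of only −0.75, −0.3, −0.44 and −0.56, with overlapping oocytes, and they reached −1.29, −1.0 and −1.16 in MSC-IVM-MII 12m, MSC-IVM-MII 6wk and IVM-MII 6wk with 1 oocyte left out. Timm8a2, so similar to Timm8a1 that reads may be split between them, overlapped too, and its −1.89 in MSC-IVM-MII 12m and −2.04 in IVM-MII 12m became −0.81 and −0.86 without oocyte 2 of each.

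All 7 TOM genes that passed the filter were lower in MII except Tomm70a in MSC-IVM-MII 6wk (0.4). Tomm40, the pore of the complex, had 3.12, 0.139 and 1.98 CPM in MSC-IVM-MII 12m, 0.845, 0.334 and 2.76 CPM in MSC-IVM-MII 6wk, 0.485, 0 and 4.67 CPM in IVM-MII 12m and 2.25, 0 and 0 CPM in IVM-MII 6wk oocytes. Against this stood 81.8, 85.9 and 51.4 CPM in GV 12m and 66.4, 74.9 and 82.7 CPM in GV 6wk, a 41.8-fold, 56.8-fold, 42.5-fold and 99.4-fold lower mean in the 4 MII groups in that order. The receptor genes differed in size: Tomm20 had −4.11, −3.94, −4.83 and −3.92 and Tomm22 had −2.06, −2.33, −2.8 and −1.72. Tomm22, the TOM gene with the highest TPM averaged over all 18 oocytes (in GV 12m Tomm6 was higher, at 136 against 111 TPM), stayed at 19.6, 19 and 22.6 CPM in MSC-IVM-MII 12m, 12.7, 19.7 and 18.3 CPM in MSC-IVM-MII 6wk, 3.03, 25.8 and 18.3 CPM in IVM-MII 12m and 13.1, 53.4 and 24.5 CPM in IVM-MII 6wk, against 74.8, 95 and 96.3 CPM in GV 12m and 84.9, 96.3 and 82.7 CPM in GV 6wk. The small subunits Tomm6 and Tomm7 were lower in every MII oocyte than in every GV oocyte of its age, with differences of −5.17 to −2.37. Tomm5 and Tomm70a averaged 1.99 and 3.0 CPM over all oocytes and rested on few libraries: in IVM-MII 6wk Tomm5 was at −1.17, or −0.32 without GV 6wk oocyte 3, and in MSC-IVM-MII 12m and IVM-MII 12m Tomm70a was at −2.12 and −1.39, or −0.94 and −0.22 without GV 12m oocyte 3. In MSC-IVM-MII 6wk Tomm5 was at −1.85, or −1.0 without GV 6wk oocyte 3.

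The SAM complex had the largest median differences of any role class with more than 2 members, −5.29, −3.98, −3.41 and −3.98 in MSC-IVM-MII 12m and 6wk and IVM-MII 12m and 6wk. Mtx2 (chromosome 2, 74825803 to 74878431, plus strand), a metaxin on the cytosolic side of SAM, had 0, 0 and 9.11 CPM in MSC-IVM-MII 12m, 7.61, 0 and 0 CPM in MSC-IVM-MII 6wk, 5.94, 0 and 6.79 CPM in IVM-MII 12m and 2.93, 0 and 0 CPM in IVM-MII 6wk oocytes. GV 12m oocytes had 224, 201 and 63.3 CPM and GV 6wk oocytes 195, 110.2 and 249.7 CPM. In each MII group 1 or 2 of the 3 oocytes carried all of its Mtx2 counts, and the folds were 53.6, 73, 38.3 and 189.6 in the same order. The partner Mtx1 had 0.446, 0 and 4.55 CPM, 7.18, 3.34 and 4.14 CPM, 2.18, 5.21 and 19.5 CPM, and 3.15, 6.52 and 4.85 CPM in MSC-IVM-MII 12m, MSC-IVM-MII 6wk, IVM-MII 12m and IVM-MII 6wk, against 108, 95.5 and 45 CPM in GV 12m and 109, 62 and 104 CPM in GV 6wk. Samm50, the barrel that inserts other barrels, did not follow its partners in IVM-MII 12m. There it had 24.6, 30.5 and 19.5 CPM, against 34.8, 37.7 and 26.1 CPM in GV 12m, with overlap and a difference of −0.39.

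For the TIM22 complex, which inserts carrier proteins, the channel gene Timm22 had no count in MSC-IVM-MII 12m, MSC-IVM-MII 6wk and IVM-MII 6wk and 1 count in IVM-MII 12m. GV 12m oocytes had 35.2, 9.81 and 17.3 CPM and GV 6wk oocytes 1.34, 3.89 and 16.0 CPM. With a floor of 3 counts per library, Timm22 was at least 26.5-fold lower in MSC-IVM-MII 12m, at least 7.93-fold lower in MSC-IVM-MII 6wk and at least 8.6-fold lower in IVM-MII 6wk than in GV of the same age. The single count in IVM-MII 12m (exact Poisson 95% interval 0.0253 to 5.57, counting error only) stood beside 350 counts in GV 12m. Its partner Timm29 averaged 1.96 CPM and overlapped in all 4 comparisons, with differences of −1.3, −0.52, −0.88 and −0.47.

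In the import motor, 6 of 7 genes were at least 2-fold lower in each MII group and the Hsp70 itself was the exception. Hspa9, the mitochondrial Hsp70 that pulls the chain inward, had 25, 149 and 52.1 CPM in MSC-IVM-MII 12m, 107, 61.2 and 86.7 CPM in MSC-IVM-MII 6wk, 44.6, 46.1 and 51.6 CPM in IVM-MII 12m and 93.5, 53.4 and 49.96 CPM in IVM-MII 6wk, against 20.9, 37.8 and 71.5 CPM in GV 12m and 68.3, 88.8 and 39.0 CPM in GV 6wk. All groups overlapped, and the differences of 0.58, 0.41, 0.29 and 0.02 were smaller than the spread of single oocytes. The first was 1.17 without MSC-IVM-MII 12m oocyte 1 and 1.02 without GV 12m oocyte 3. Its regulators were lower. Pam16, a J-like subunit, had the highest TPM of the motor genes averaged over all 18 oocytes, although Dnajc19 was above it in IVM-MII 6wk, at 121 against 99.2 TPM. It had 64.7, 16.7 and 49.5 CPM in MSC-IVM-MII 12m, 23.2, 25.4 and 64.9 CPM in MSC-IVM-MII 6wk, 34.4, 60.1 and 46.9 CPM in IVM-MII 12m and 14, 58.1 and 31.7 CPM in IVM-MII 6wk, against 399.6, 208 and 74.7 CPM in GV 12m and 225, 98 and 244 CPM in GV 6wk. No MII oocyte reached the lowest GV oocyte of its age.

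Of the J-protein genes of the motor, Dnajc15 was much lower, with 0, 0 and 3.76 CPM in MSC-IVM-MII 12m, 1.9, 6.02 and 9.32 CPM in MSC-IVM-MII 6wk, 0.363, 3.41 and 9.77 CPM in IVM-MII 12m and 0.676, 18.9 and 5.42 CPM in IVM-MII 6wk, against 259, 82.6 and 60.0 CPM in GV 12m and 67.7, 46.2 and 161 CPM in GV 6wk. Its paralog Dnajc19 was lower by less, with differences of −2.14, −1.86, −1.76 and −1.65 in the same order, the last being −1.04 without IVM-MII 6wk oocyte 1. Grpel1, the nucleotide exchange factor of Hspa9, had 8.03, 35.4 and 7.32 CPM in MSC-IVM-MII 12m, 9.3, 110.3 and 80.8 CPM in MSC-IVM-MII 6wk, 39.7, 43.7 and 5.94 CPM in IVM-MII 12m and 14.4, 216 and 99.9 CPM in IVM-MII 6wk, against 313, 236 and 127 CPM in GV 12m and 205, 122 and 269 CPM in GV 6wk. IVM-MII 6wk overlapped GV 6wk, and both 6wk values depended on the Y01 oocyte: −2.06 in MSC-IVM-MII 6wk and −1.45 in IVM-MII 6wk were −0.99 and −0.36 without oocyte 1, and the second of these was −2.27 without oocyte 2. Grpel2, the paralog of Grpel1, had at most 38.1 CPM in any oocyte and was lower in every MII oocyte than in every GV oocyte of its age, with differences of −4.06, −3.13, −1.87 and −3.48 in the same order, the first resting on 3 counts over the MSC-IVM-MII 12m oocytes. Timm44, which tethers Hspa9 to the channel, had differences of −2.4, −1.92, −1.55 and −2.18, and overlapped GV in MSC-IVM-MII 12m.

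Hspd1, the Hsp60 chaperonin that folds imported proteins, had 41.5, 101.08 and 74.2 CPM in MSC-IVM-MII 12m, 129, 62.2 and 107 CPM in MSC-IVM-MII 6wk, 87, 98.6 and 76.2 CPM in IVM-MII 12m and 114, 64.3 and 37.7 CPM in IVM-MII 6wk, against 34.3, 52.6 and 121 CPM in GV 12m and 84.7, 102.65 and 59.6 CPM in GV 6wk. It overlapped in every comparison (differences 0.17, 0.24, 0.52 and −0.3, the third 1.01 without GV 12m oocyte 3). The 2 subunits of the presequence peptidase were both lower. Pmpcb, the catalytic subunit, had 0, 34.7 and 11.3 CPM in MSC-IVM-MII 12m, 5.7, 9.03 and 0 CPM in MSC-IVM-MII 6wk, 0, 16.8 and 0 CPM in IVM-MII 12m and 8.11, 23.9 and 0 CPM in IVM-MII 6wk, against 107, 84.5 and 48.2 CPM in GV 12m and 95.7, 65.4 and 89.7 CPM in GV 6wk. It was unevenly detected: −3.34 in MSC-IVM-MII 12m was −1.87 without oocyte 1 and −3.78 in IVM-MII 6wk was −2.47 without oocyte 3. Pmpca, at most 15.9 CPM in any GV oocyte, had no count in MSC-IVM-MII 12m, MSC-IVM-MII 6wk and IVM-MII 6wk. In IVM-MII 12m it had 3.75, 0.2 and 0 CPM, against 2.9, 3.52 and 15.9 CPM in GV 12m, a difference of −1.9 with overlapping oocytes.

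Of the members outside these complexes, Tomm34, a cytosolic cochaperone of import, had 66.5, 95.8 and 77.2 CPM in MSC-IVM-MII 12m, 182, 67.9 and 115 CPM in MSC-IVM-MII 6wk, 71.6, 54.9 and 104.88 CPM in IVM-MII 12m and 186, 20.8 and 59.7 CPM in IVM-MII 6wk, against 58.8, 80 and 32.9 CPM in GV 12m and 77.7, 121 and 58.2 CPM in GV 6wk. It overlapped throughout, and its difference of −0.4 in IVM-MII 6wk was −1.19 without oocyte 1. Timmdc1, which in human cells is an assembly factor of complex I rather than an import protein, was at 0 to 0.849 CPM in MII oocytes and at 2.68 to 7.53 CPM in GV oocytes. The 3 members that did not pass the filter were Tomm20l and the antisense gene Tomm6os, at 0 in all 18 oocytes, and Tomm40l, with 5 counts in MSC-IVM-MII 12m, none in the other MII groups, 48 in GV 12m and 11 in GV 6wk.

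**Figure D3:**
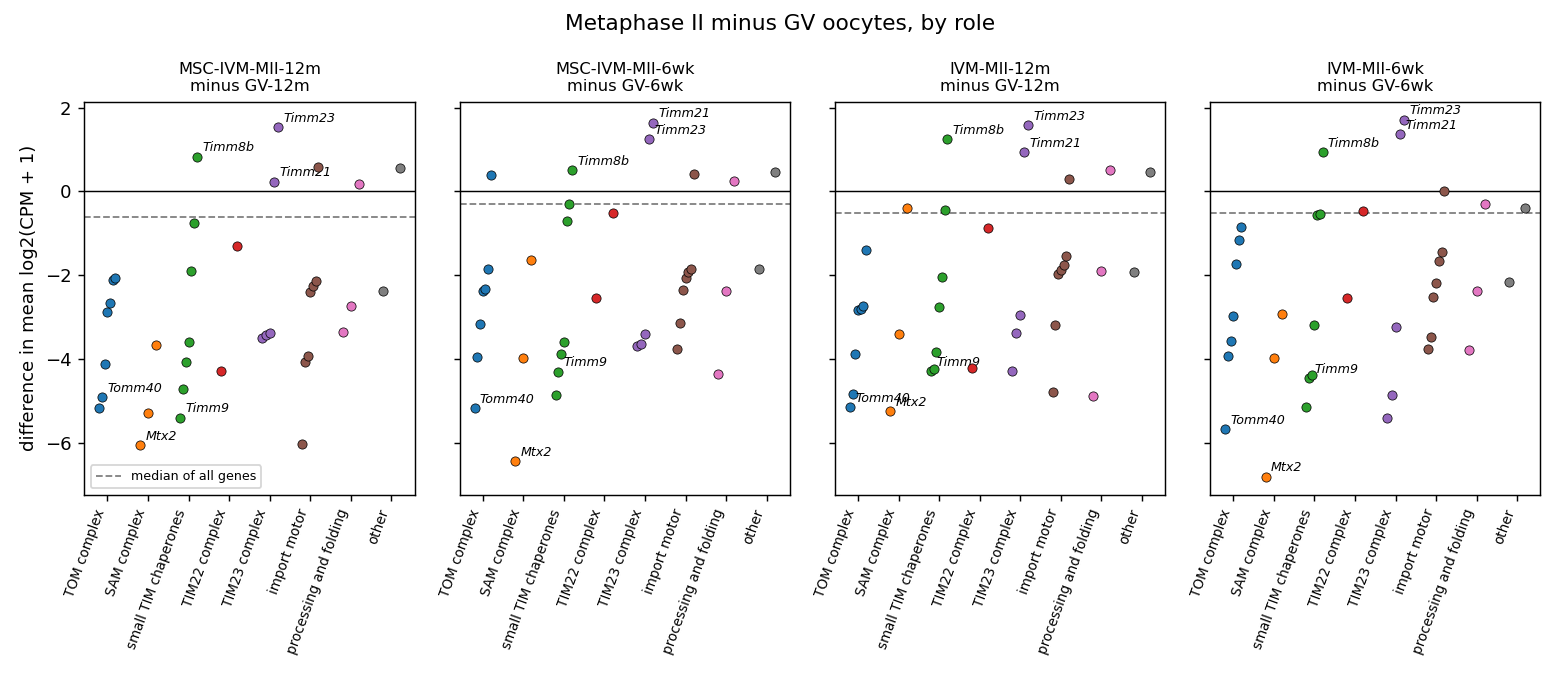
Difference of each of the 36 measured members between MII and GV oocytes of the same age, in log2(CPM + 1), 1 panel per comparison, with members placed by role and the median of all 12037 genes as a dashed line. Most points lie below the dashed line, and Timm23 lies above 1 in each panel.

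The make-up of the set therefore differed between the stages, seen in the TPM that the authors deposited, which allow for gene length as well as library size. In all 4 MII groups Timm8b and Timm23 were the highest pair, Timm8b first in both 12m groups and Timm23 first in both 6wk groups. Timm8b averaged 1962 TPM in MSC-IVM-MII 12m, 1208 TPM in MSC-IVM-MII 6wk, 1741 TPM in IVM-MII 12m and 1535 TPM in IVM-MII 6wk, and Timm23 1608, 1402, 1396 and 1796 TPM. In GV oocytes Timm17a led (1226 TPM in GV 12m, 1345 TPM in GV 6wk), followed by Timm9 (971 and 829.6 TPM), Timm8b (832 and 738 TPM), Pam16 (529 and 508 TPM) and Timm23 (471 and 503 TPM). Timm8b and Timm23 together made up 84.8, 82.6 and 76.8% of the members' summed TPM in MSC-IVM-MII 12m oocytes, 60.0, 78.7 and 72.9% in MSC-IVM-MII 6wk, 78.7, 83.3 and 77.0% in IVM-MII 12m and 76.9, 71.8 and 77.8% in IVM-MII 6wk. In GV 12m oocytes they made up 19.8, 22.2 and 22.6% and in GV 6wk oocytes 21.8, 20.3 and 20.3%, with no overlap between the stages. The pair was picked for its level in MII oocytes, so its larger share there is not a separate result. The sum of the other members ran from 593 to 1665 TPM in MII oocytes and from 3821 to 5682 TPM in GV oocytes. Over all members the sums overlapped, at 2347 to 5896 TPM in MII oocytes and 4792 to 7089 TPM in GV oocytes.

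Paralogs kept their order per length in every group. Timm17a exceeded Timm17b at 115 and 4.99 TPM in MSC-IVM-MII 12m, 189 and 9.23 TPM in MSC-IVM-MII 6wk, 126 and 8.85 TPM in IVM-MII 12m, 369 and 0.76 TPM in IVM-MII 6wk, 1226 and 47.8 TPM in GV 12m and 1345 and 53.2 TPM in GV 6wk. Grpel1 exceeded Grpel2, from 5.07 and 0.0733 TPM in MSC-IVM-MII 12m to 55.3 and 6.28 TPM in GV 6wk. Timm8b exceeded Timm8a1 in all 6 groups, and Timm8a1 stayed between 24.6 and 36.8 TPM. The J-protein genes were far apart in MII oocytes, with group means of 98.9 to 121 TPM for Dnajc19 and 3.6 to 19.5 TPM for Dnajc15. In GV oocytes they were nearer to each other, with 352 TPM at 12m and 341 TPM at 6wk for Dnajc19 and 266 and 207 TPM for Dnajc15. Dnajc19 shares 178 exon bases (4.42% of its own) with Fxr1 on the opposite strand, which averaged 209 to 257 CPM in the MII groups and 82.2 to 112 CPM in GV.

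The other genes of the pathway, 22 in number and all measured, were lower by less than the import genes themselves, with medians of −0.98, −1.27, −1.05 and −1.6 in MSC-IVM-MII 12m and 6wk and IVM-MII 12m and 6wk. At least 2-fold lower were 11, 13, 11 and 13 of them, against 41.7%, 35.2%, 39.0% and 39.3% of all genes, and 1, 1, 2 and 1 were at least 2-fold higher, against 16.7%, 21.4%, 16.1% and 16.7%. The lower shares of this list were nearer to those of all genes than the shares of the import genes were, in each of the 4 comparisons. Hspa8, the cytosolic Hsp70 that escorts precursors to the outer membrane, had differences of −5.52, −6.45, −5.51 and −5.58. Its mean CPM were 15.5, 53.6, 28.7 and 34.9 in the same order, against 687 in GV 12m and 996 in GV 6wk. Every MII oocyte lay below every GV oocyte of its age for Hspa8. Dnlz, the escort of Hspa9, had −5.36, −4.91, −4.23 and −4.91, and Mipep, a peptidase that trims some presequences further, −3.2, −2.21, −2.88 and −1.78. Hspe1, the co-chaperonin of Hspd1, had −1.37, −1.43, −0.67 and −1.41. On the high side were Immp1l, a subunit of the inner membrane peptidase (1.72, 0.94, 1.88 and 1.13), and Romo1, whose yeast counterpart Mgr2 belongs to the TIM23 complex (0.91, 1.08, 1.63 and 0.96). Every MII oocyte lay above every GV oocyte of its age for Immp1l in both 12m groups and for Romo1 in IVM-MII 12m. In the other groups these 2 genes overlapped GV. Nuclear genes of other mitochondrial machines had medians close to or below that of the import genes, at −4.21, −3.56, −2.84 and −3.62 for 46 Nduf genes of complex I and −2.93, −2.61, −2.61 and −2.53 for 78 Mrpl and Mrps genes of the mitochondrial ribosome. The difference between these lists was not tested. The 13 mitochondrially encoded mRNAs had medians of 1.93, 1.51, 1.46 and 1.79.

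Messages that gain poly(A) during maturation in the oocyte commonly carry a cytoplasmic polyadenylation element near the 3′ end, which binds CPEB, beside the polyadenylation signal. The last 100 bases of the annotated principal transcript were searched on the sense strand alone for TTTTAT or TTTTAAT (the longer motif overlaps the polyadenylation signal in Tomm5 and Tomm70a), and 6 of the 36 measured members held one, 16.7%, against 19.3% of 10809 genes with an annotated end. The search was chosen after the maturation values had been seen. The 6 were Timm8b, Tomm34, Tomm6, Tomm5, Tomm70a and Timm29. In a window of 150 bases Timm23 joined them, making 7, or 19.4% against 24.6%. In a window of 50 bases only Tomm34, Tomm5 and Tomm70a remained, 3 members, or 8.33% against 11.2%. With the transcript nearest to the deposited length in GV oocytes, Tomm22, which was lower in MII, joined the 6. That made 7, or 19.4% against 18.1%. Windows of 30 bases (GRCm38, GENCODE M21 transcripts) from members that were not lower in most MII groups (Timm8b, Tomm34 and Timm23), from Tomm6, which was lower and holds both motifs, and from Timm9 and Mtx2, which hold only a polyadenylation signal, follow, with the motif in capitals.
Timm8b: caaaagtgaaaTTTTATttatgggaattca
Tomm34: aattgaactgaTTTTATtgaagtgtgtgtt
Timm23: caggccatactTTTTATtaccatgttaatt
Tomm6: aaagacaggtaTTTTATtcttttaataaga
Timm9: attactaaaagtaAATAAAtgagtatcatt
Mtx2: aggtttaattaAATAAAtaataattctctt
They lie at chr9:50605244-50605273 (plus strand), chr2:164053569-164053598 (minus), chr14:32180248-32180277 (minus), chr17:47686713-47686742 (minus), chr12:71123174-71123203 (minus) and chr2:74878394-74878423 (plus). The capitals start 66, 48, 86, 17 and 27 bases before the annotated end in Timm8b, Tomm34, Tomm6, Timm9 and Mtx2, and between 100 and 150 bases before it in Timm23.

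Members with a motif in the last 100 bases had median differences from GV of −1.71, −0.06, −1.13 and −0.66 in MSC-IVM-MII 12m and 6wk and IVM-MII 12m and 6wk, and members without one −3.45, −2.83, −2.87 and −3.05. Over all genes the medians were −0.06, 0.36, −0.07 and 0.1 with a motif and −0.77, −0.41, −0.68 and −0.67 without. Of the 6 members, Tomm5, Tomm70a and Timm29 averaged 1.99, 3.0 and 1.96 CPM, where the pseudocount of 1 shrinks any difference, and Tomm6 had differences of −2.87, −2.37, −2.82 and −2.97. Timm21, Hspa9 and Hspd1 held none in the window. A polyadenylation signal (AATAAA or ATTAAA) lay in the window in 31 of the 36 members, 86.1%, against 80.3% of all genes. The annotated mRNA was within 10% of the mean deposited length in GV oocytes for 21 of the 36 members, so the ends used in oocytes may differ from the annotated ones. Whether the motifs have a part in the differences was not tested.

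**Figure D4:**
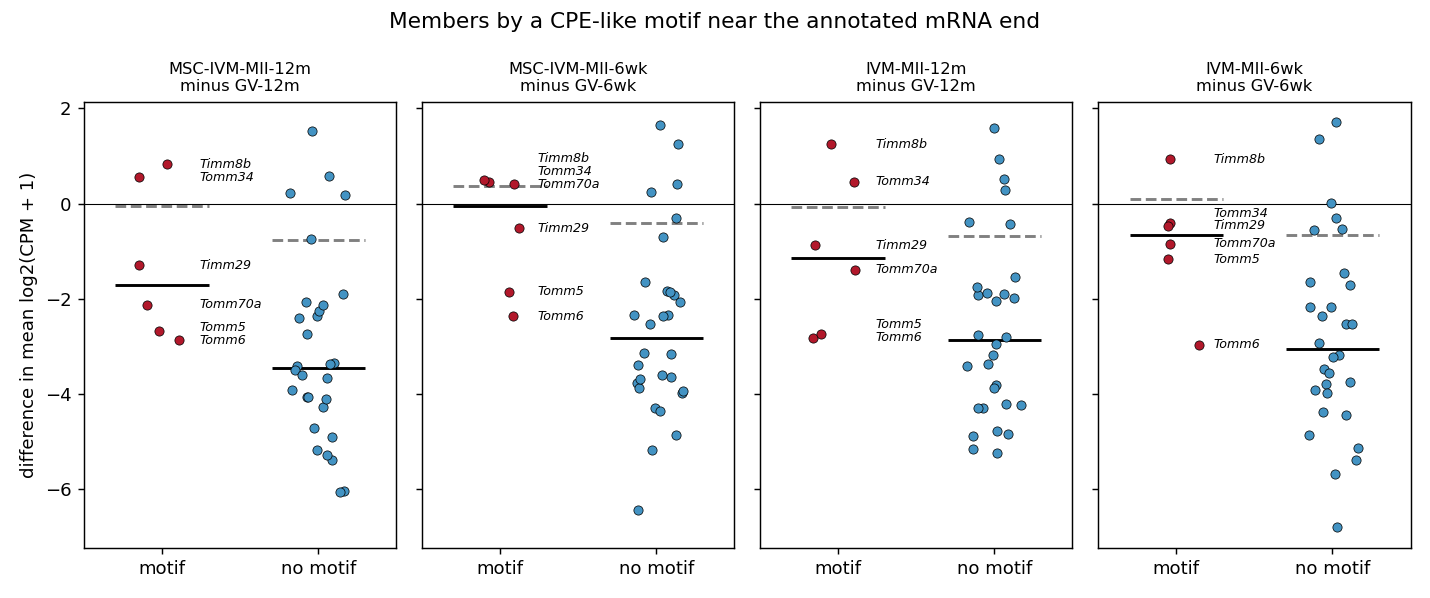
Difference between MII and GV oocytes of the same age, in log2(CPM + 1), for the 6 members with and the 30 members without a TTTTAT or TTTTAAT motif in the last 100 bases, 1 panel per comparison, with solid lines for their medians and dashed lines for the medians of all genes. Members without a motif range from far below to above 0, since Timm23, Timm21 and Hspa9 are among them.

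Age was compared within each kind of oocyte. In GV oocytes the members lay close together: the median difference of GV 12m minus GV 6wk was 0.14, against 0.12 over all genes, and 0 members were at least 2-fold lower and 2 higher, against 4.28% and 9.46% of all genes. These were Timm22 at 1.73, with values given above and overlapping oocytes, and Tomm70a at 1.47, with 0.891, 2.89 and 30.3 CPM in GV 12m and 2.42, 2.19 and 0 CPM in GV 6wk. Tomm70a came to 0.29 without GV 12m oocyte 3 and 0.89 without GV 6wk oocyte 3, and 2.32 without GV 12m oocyte 1. Timm22 ranged from 1.08 (without GV 6wk oocyte 1) to 2.51. GV 12m oocyte 3, the one with the granulosa markers, had the lowest Timm17a, Timm9, Timm23 and Mtx2 CPM of the GV 12m group. It also had the highest Hspa9, Hspd1, Tomm22, Pmpca and Tomm70a. Its scaling factor (TMM) was 1.43, against 0.713 and 0.868 in oocytes 1 and 2, which lowers its CPM beside theirs. In TPM, the members other than Timm23 and Timm8b summed to 5682, 4457 and 4222 in oocytes 1, 2 and 3. For 0 members did all oocytes of one age lie above all of the other, against 3.51% of all genes lower and 3.67% higher at 12m.

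In IVM-MII oocytes the median of 12m minus 6wk was 0.26, against 0.16 over all genes. There were 3 members at least 2-fold lower and 6 higher in IVM-MII 12m, against 9.08% and 18.1% of all genes, shares close to the background. Samm50 had the largest difference, 2.27, with 24.6, 30.5 and 19.5 CPM in IVM-MII 12m and 1.13, 4.04 and 12.8 CPM in IVM-MII 6wk. It was the only member with all oocytes at 12m above all at 6wk (6.24% of all genes), 0 members had the reverse (2.37%), and it stayed between 1.61 and 2.96 with any 1 oocyte left out. Timm17b (2.08) and Timm10b (1.74) also stayed past the limit, Timm10b at 1.02 without IVM-MII 12m oocyte 1. The 6 others did not. Grpel1, at −1.58, was −0.71 without IVM-MII 12m oocyte 3, −0.76 without IVM-MII 6wk oocyte 2 and −2.67 without IVM-MII 6wk oocyte 1, and Tomm22, at −1.08, was −0.24 without IVM-MII 12m oocyte 1 and −0.57 without IVM-MII 6wk oocyte 2. The other 4 had few CPM and moved with several oocytes. Pmpcb (−1.22) ran from −2.61 without IVM-MII 12m oocyte 2 to −0.21 without IVM-MII 6wk oocyte 2, and Grpel2 (1.35) from 0.76 without IVM-MII 6wk oocyte 3 to 2.05 without oocyte 1. Mtx2 (1.26) ran from 0.74 without IVM-MII 12m oocyte 3 to 2.22 without oocyte 2, and Timm13 (1.24) from 0.54 without IVM-MII 6wk oocyte 1 to 2.05 without oocyte 3. Timm17a, at 0.08, was −1.84 without IVM-MII 6wk oocyte 1 and 1.35 without oocyte 2.

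In co-cultured oocytes the median of MSC-IVM-MII 12m minus MSC-IVM-MII 6wk was −0.1, against −0.12 over all genes, with 8 members at least 2-fold lower and 0 higher, against 15.2% and 7.73%. Samm50 was again the largest, now at −2.28, with 0, 0 and 17.6 CPM in MSC-IVM-MII 12m and 13.1, 12.7 and 10.02 CPM in MSC-IVM-MII 6wk. The oocytes overlapped, because MSC-IVM-MII 12m oocyte 3 was the highest of all 6, and the value was −3.69 without it. Grpel1 (−1.7) ran from −2.77 without MSC-IVM-MII 6wk oocyte 1 to −1.05 without oocyte 2. Dnajc15 (−1.82), Tomm7 (−1.73, or −2.75 without MSC-IVM-MII 12m oocyte 3) and Mtx1 (−1.5) also stayed past the limit. Grpel2 (−1.18) came to −0.18 without MSC-IVM-MII 6wk oocyte 1, Timm21 (−1.1) to −0.24 without MSC-IVM-MII 12m oocyte 1 and Tomm70a (−1.05) to −0.38 without MSC-IVM-MII 6wk oocyte 2. No member had all oocytes of one age above all of the other, against 4.85% of all genes lower and 2.94% higher. The abundant Timm23 and Timm8b overlapped between the ages.

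Co-culture was compared at each age as MSC-IVM-MII minus IVM-MII. At 12m the median over the members was −0.39, against −0.1 over all genes, with 6 members at least 2-fold lower and 1 higher, against 15.2% and 10.3%. Within title prefixes 9 were lower and 1 higher, with a median of −0.37. Samm50 was at 0, 0 and 17.6 CPM in MSC-IVM-MII 12m and 24.6, 30.5 and 19.5 CPM in IVM-MII 12m, a difference of −3.26 (−4.67 to −2.56 with 1 oocyte left out). Grpel2, at 0.446, 0 and 0.396 CPM in MSC-IVM-MII 12m and 8.84, 1.6 and 6.37 CPM in IVM-MII 12m, differed by −2.18. Together with Timmdc1, which is below 1 CPM in both groups, these were the 3 members for which every co-cultured oocyte lay below every other one, against 3.99% of all genes, and 0 members had the reverse (2.63%). Mtx1 (−1.89, or −1.15 without IVM-MII 12m oocyte 3) stayed past the limit as well. Tomm7 (−1.3), Dnajc15 (−1.25) and Timm9 (−1.1) did not: they came to −0.55 without IVM-MII 12m oocyte 1, −0.54 without IVM-MII 12m oocyte 3 and −0.45 without MSC-IVM-MII 12m oocyte 2. Pmpcb, the 1 higher member (1.54), came to 0.42 without MSC-IVM-MII 12m oocyte 2 and 3.0 without oocyte 1. MSC-IVM-MII 12m oocyte 1 is the shallowest library, with 1914072 counts and 24 members detected. Oocyte 2, with 7369629 counts, had no Samm50 count either. Whether depth or missed capture has a part in these zeros was not tested.

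At 6wk the median of MSC-IVM-MII minus IVM-MII was 0.22, against 0.2 over all genes, with 0 members at least 2-fold lower and 4 higher, against 5.22% and 16.2%. The 4 were Timm50 (1.75), Samm50 (1.28), Tomm70a (1.24) and Timm17b (1.18). None stayed past the limit with each oocyte left out: Timm50 came to 0.81 without IVM-MII 6wk oocyte 3, Samm50 to 0.62 without IVM-MII 6wk oocyte 1, Tomm70a to 0.57 without MSC-IVM-MII 6wk oocyte 2 and Timm17b to 0.13 without MSC-IVM-MII 6wk oocyte 1. Timm50, Tomm6 and Tomm7 were higher in all 3 co-cultured oocytes than in all 3 others (3.86% of all genes), though Tomm6 and Tomm7 did not reach 2-fold, and 0 members were lower in all (1.51%). The median was 0.0 without both Y01 oocytes, with 4 members lower and 4 higher. Samm50 thus lay lower with co-culture at 12m and higher at 6wk. Whether the effect differs by age was not tested, and at 6wk its values of 13.1, 12.7 and 10.02 CPM in MSC-IVM-MII and 1.13, 4.04 and 12.8 CPM in IVM-MII overlapped.

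**Figure D5:**
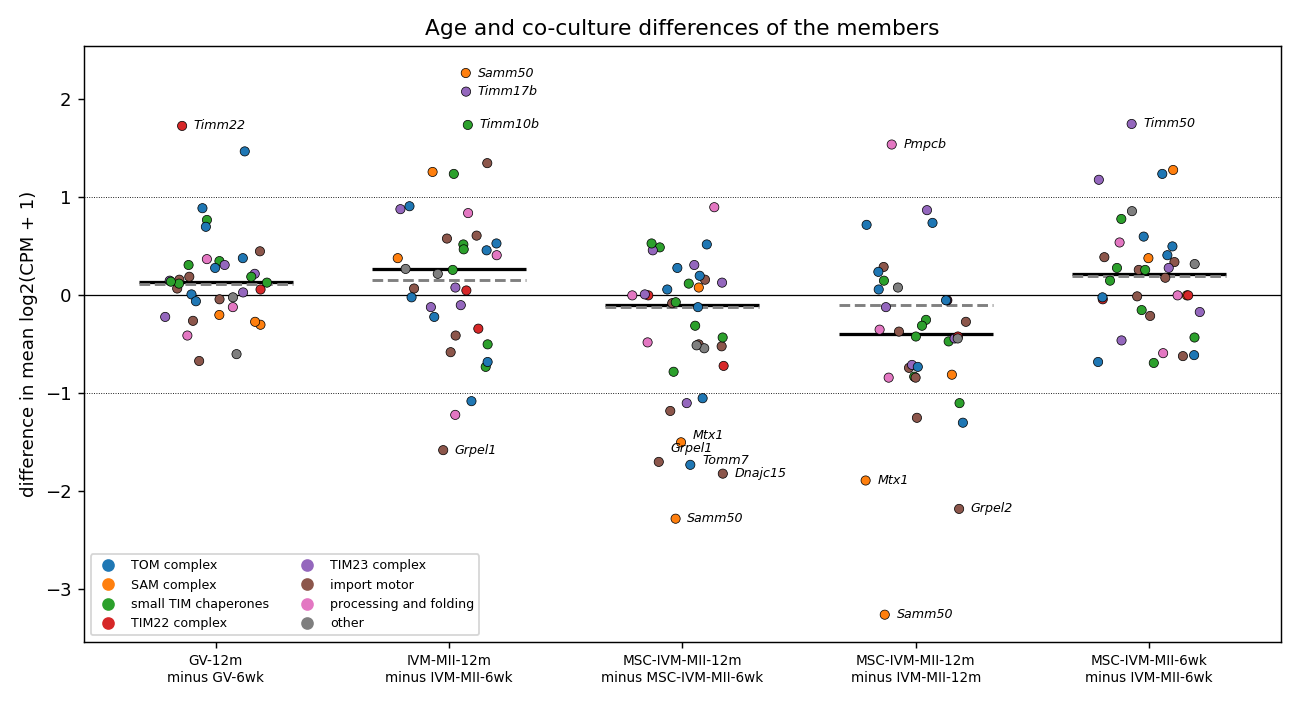
Difference of each of the 36 measured members by age and by co-culture, in log2(CPM + 1), 1 column per comparison, coloured by role, with a solid line for the members' median, a dashed line for that of all genes and dotted lines at 1 and −1. The solid and dashed lines lie close together, farthest apart for co-culture at 12m (−0.39 and −0.1), and Samm50 is the most extreme point in 3 of them.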

How the data were processed

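Single-oocyte SMART-seq2 libraries, 18 in 6 labelled groups of 3, were analysed from the deposited gene tables. Per the labels' protocols, the supernatant of a mildly lysed oocyte was used after the nucleus had been removed by spinning. Expected counts and TPM are as deposited, in columns named so per the file headers. FPKM, as deposited, was not used. The tools in the submitters' processing notes are TopHat2 2.1.1, Cufflinks, Trim Galore 0.4.5 and FastQC 0.11.8, and the build is GRCm38.p5 (mm10). Which tool counted, with which annotation and strand setting, is not given in the sources used here. Such counts split reads shared by similar genes, so close paralogs are less certain.

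Expected counts were rounded, TMM factors were computed with R 4.3.3 and edgeR 4.0.16, and filterByExpr by group kept 12037 of 47069 genes. Symbols and coordinates came from GENCODE M21 (GRCm38), which matched 46488 identifiers. Differences are of mean log2(CPM + 1), with a pseudocount of 1 that understates low genes, and folds are ratios of mean CPM. Each group of oocytes is 1 sample, so no p-value or standard error was made. A floor of 3 counts per library bounds folds against groups at 0. Intervals are exact Poisson at 95%. Floors and intervals cover counting error only. Values of every oocyte were printed for the 3 members with the largest difference each way per comparison among those of at least 20 CPM, for the member of each role class with the highest mean TPM over all oocytes and for 6 paralog pairs, where not given once already or summarised. The members, lists and this rule were chosen with earlier results of these data known. Members named for failing a leave-one-out limit or for their motif were chosen after their values were seen. The calculation was tested on simulated counts for genes averaging at least 20 CPM, so genes below that level were not covered. No 2 libraries of the same group held identical values. DESeq2 1.42.0 gave alternative size factors. Other steps used Python 3.11.15 (pandas 2.3.3, NumPy 2.4.6, Matplotlib 3.10.9 and SciPy 1.17.1).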

Additional observations from a re-analysis of the deposited data

How the results depend on the processing

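The negative median of the import genes in the 4 comparisons of MII with GV kept its sign under each alternative tried. A pseudocount of 5 brought it to −2.21 in MSC-IVM-MII 12m, −1.9 in MSC-IVM-MII 6wk, −1.97 in IVM-MII 12m and −1.87 in IVM-MII 6wk, and a pseudocount of 0.5 brought the last to −3.08. The pseudocount moves low values by construction. Leaving out 1 oocyte gave medians of −3.38 to −2.85, −2.66 to −2.13, −2.8 to −2.17 and −2.8 to −2.24 in that order, with 28 to 30, 25 to 27, 26 to 28 and 26 to 27 members at least 2-fold lower and 1 to 3, 1 to 3, 2 to 3 and 2 to 3 higher. In MSC-IVM-MII 12m the higher count of 1 was 2 with TPM, within title prefixes, with total counts in place of TMM and with a 1.5-fold limit. In MSC-IVM-MII 6wk the higher count of 2 was 1 within title prefixes. With a 4-fold limit the higher count was 0 in all 4.

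The age comparison of GV oocytes changed sign. Its median of 0.14 was −0.01 with TPM, −0.16 without GV 12m oocyte 1 and −0.08 without GV 6wk oocyte 2. Over single oocytes left out it ran from −0.16 to 0.32, with 0 to 1 members lower and 2 to 4 higher. The higher count was 1 with a pseudocount of 5, and the lower and higher counts were 2 and 5 with a 1.5-fold limit and 0 higher with a 4-fold limit. The cause was not tested. For IVM-MII by age, leaving out 1 oocyte gave medians of 0.1 to 0.51, 0 to 5 members lower and 4 to 10 higher. Lower and higher counts were 1 and 2 with a pseudocount of 5, 5 and 10 with a 1.5-fold limit and 0 and 2 with a 4-fold limit, and 5 were lower without the Y01 MII oocytes. For MSC-IVM-MII by age, medians were −0.41 to −0.03 with 7 to 11 lower and 0 to 4 higher. The lower count of 8 was 2 with a pseudocount of 5, 1 with a 4-fold limit and 5 by the ratio of means. The higher count of 0 was 1 with TPM, by the ratio of means and with a 1.5-fold limit, and 4 without the Y01 MII oocytes.

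For co-culture at 12m, medians without 1 oocyte were −0.46 to −0.23, with 5 to 11 lower and 1 to 4 higher. Lower and higher counts were 1 and 0 with a pseudocount of 5, 13 and 4 with a 1.5-fold limit and 2 and 0 with a 4-fold limit, and the higher count was 2 with a pseudocount of 0.5 and with total counts. For co-culture at 6wk, medians without 1 oocyte were 0.0 to 0.3, with 0 to 5 lower and 4 to 7 higher. The higher count of 4 was 0 with a pseudocount of 5 or a 4-fold limit and 7 with a 1.5-fold limit. The lower count of 0 was 4 by the ratio of means and without the Y01 MII oocytes, and 5 with a 1.5-fold limit.

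Of the single members, 4464 results moved by less than the spread between oocytes and 144 by more, with no called value changing sign. Results with a single oocyte left out fell among the 4464 by construction. Dropping it from so small a group cannot shift the mean by that spread. For those results the count says nothing about stability, and several crossed the 2-fold limit, as given above. Signs held under every setting for 33 of 36 members in MSC-IVM-MII 12m minus GV 12m, 33 in MSC-IVM-MII 6wk minus GV 6wk, 35 in IVM-MII 12m minus GV 12m and 31 in IVM-MII 6wk minus GV 6wk. DESeq2 size factors shifted the median of all genes by −0.16 in IVM-MII 12m minus GV 12m. Thinned to 1914072 counts, IVM-MII 12m oocytes had counts for 29.0 members on average, against 30.7 unthinned. No paired analysis was possible because replicate numbers follow the order of deposition and no test was made. Values within title prefixes average over prefixes that hold both groups, and the labels do not say what a prefix marks. They moved the lower count for co-culture at 12m to 9, against 6. A gene with few counts may be missed in a single oocyte by chance of capture, and no replicate of animals bounds any value.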
